A study of Homo sapiens with 5 samples.

Results

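High-mitochondrial barcodes of KYSE30-Luc-GFP were compared with the kept barcodes of the same library at each timepoint. A barcode stands for 1 droplet, and a unique molecular identifier (UMI) for 1 captured RNA molecule. The 5737 high-mitochondrial barcodes were selected on their own counts, with at least 1000 UMIs and more than 15% of UMIs in genes of the mitochondrial genome (named MT-). The 19986 kept barcodes had at least 1000 UMIs, at most 15% in MT- genes and 200 to 8000 detected genes. Both came from 26712 deposited barcodes, and a barcode that met neither description was left out. The mitochondrial share chose the members, so that share and the loss of other RNA that goes with it are given as descriptions.

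KYSE30 is an established human esophageal squamous cell carcinoma (ESCC) line, labelled here with luciferase and green fluorescent protein. The parental library held cells in culture. The other 4 libraries held cells of the same line recovered from mouse lungs at 6 h and 48 h, and then at 2 or 4 months, after injection into the tail vein. The hosts were young NOD SCID mice, whose B and T cells do not function. Lungs were digested with liberase and then trypsin, mouse cells were depleted with beads and green cells were sorted, steps that the cultured cells had not all been through. Each timepoint had 1 library, and several mice were pooled at some timepoints, so no value below has a replicate error or a test. Intervals are exact 95% intervals for counting error only.

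A cell whose outer membrane leaks loses soluble RNA from the cytoplasm, while RNA inside mitochondria and inside the nucleus is held behind further membranes. Messenger RNA for secreted and membrane proteins is translated on the endoplasmic reticulum (ER), and most other messenger RNA is translated on free ribosomes in the cytosol. For this reason a high mitochondrial share is widely used in single-cell work to set damaged cells aside.

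The share of high-mitochondrial barcodes was lowest in culture. It was 3.596% of barcodes with at least 1000 UMIs in the parental library (338 of 9399, 3.23% to 3.99%). In lung it was 22.5% at 6 h (570 of 2528, 20.9% to 24.2%), 42.1% at 48 h (855 of 2030, 39.96% to 44.3%), 41.7% at 2 months (2373 of 5696, 40.4% to 43.0%) and 26.2% at 4 months (1601 of 6100, 25.1% to 27.4%). These intervals cover the counting of barcodes within a library only. With no replicate library at any timepoint, their overlap or separation cannot show whether timepoints differ. The order of the shares depended on the UMI minimum. Among barcodes with at least 3000 UMIs the shares were 1.79%, 11.7%, 37.6%, 23.4% and 22.6%, and 2 months then lay next to 4 months. The 4 lung shares lay above culture, but tissue digestion, bead depletion and injection differed together from culture and cannot be told apart.

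High-mitochondrial barcodes held as many mitochondrial UMIs as kept ones, or more, and far fewer UMIs of nuclear genes. The median number of mitochondrial UMIs in high and kept barcodes was 1320 and 1259 in culture, 1393.5 and 710 at 6 h, 2972 and 2248 at 48 h, 1802 and 1465.5 at 2 months, and 2780 and 1701 at 4 months. The median number of nuclear-gene UMIs was 1449 against 21744 in culture, 1098.5 against 12218 at 6 h, 1354 against 36582 at 48 h, 323 against 20359 at 2 months, and 1618 against 25774 at 4 months. Kept barcodes thus held 15.01-, 11.1-, 27.0-, 63.0- and 15.9-fold more nuclear-gene UMIs at these timepoints. Part of this was set by the selection, since nuclear-gene UMIs are the rest of each barcode's total. The UMI minimum acted on mitochondrial UMIs as well. A barcode of high mitochondrial share passed it only with many mitochondrial UMIs, and barcodes with few UMIs of both kinds were left out. How far this held up the mitochondrial medians was not tested. Just inside the limit, at 15% to 16% mitochondrial UMIs, the median was 5910, 5126, 14886, 8252.5 and 12921 nuclear-gene UMIs in the 5 libraries, and just outside it, at 14% to 15%, it was 6563, 5711, 19903, 7800 and 13897. These medians rest on 7, 27, 21, 54 and 42 barcodes inside and 17, 29, 22, 61 and 56 outside.

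**Figure D1:**
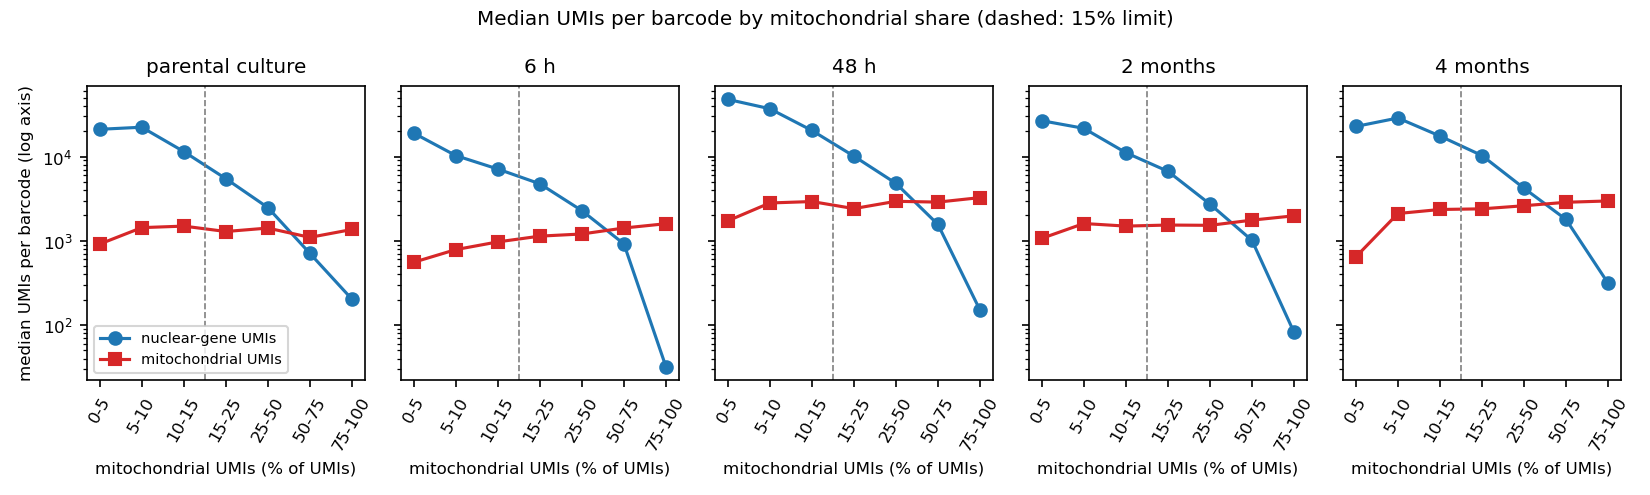
Median UMIs per barcode (log axis) in 7 bins of the mitochondrial share, for each library, with nuclear-gene UMIs as circles and mitochondrial UMIs as squares. Nuclear-gene UMIs fall from bin to bin past the 15% limit (dashed line) while mitochondrial UMIs stay between 1098 and 3254.5 on that side. The UMI minimum leaves out barcodes with few UMIs of both kinds, so the mitochondrial level there is partly set by the selection.

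The 13 mitochondrially encoded genes kept similar proportions to each other. MT-CO2, a subunit of cytochrome c oxidase, made up 33.8% of mitochondrial UMIs in high and 34.0% in kept barcodes of the culture. MT-CO1, of the same enzyme, made up 19.1% and 21.4% at 4 months. MT-ATP8, a subunit of ATP synthase, had log2 ratios of 0.57 and 0.62 in the late lung libraries, the largest of the 13 genes there, with 6.26% of mitochondrial UMIs in high against 4.23% in kept barcodes at 2 months and 6.00% against 3.91% at 4 months. Its shares in culture were 3.10% and 2.77%. MT-ND6, the subunit gene on the other strand, made up 1.25% and 0.803% in culture, a log2 ratio of 0.64. Apart from that gene in culture and MT-ATP8 at 2 and 4 months, the log2 ratios of the 13 shares lay between -0.21 and 0.35 in all 5 libraries.

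Which nuclear transcripts stayed was read from the summed counts of each group in each library, with MT- genes removed from counts and totals, as CPM, the counts of a gene scaled to a common total. The log2 ratio of high over kept was taken after adding 1 CPM, over genes with a mean of the 2 CPM of at least 20. This ratio gives the make-up of what was left, not the number of molecules per cell. In culture 3198 of 7418 genes were at least 2-fold higher in high-mitochondrial barcodes (43.1%) and 347 at least 2-fold lower (4.68%). At 6 h, 573 of 5418 were higher (10.6%) and 268 lower (4.95%). At 48 h, 1191 of 6243 were higher (19.1%) and 326 lower (5.22%). At 2 months, 1313 of 6136 were higher (21.4%) and 289 lower (4.71%). At 4 months, 1793 of 5848 were higher (30.7%) and 22 lower (0.376%). The excess of higher genes depended on the scale, and its cause was not tested. The median log2 ratio of all genes was 0.80 in culture, 0.04 after 6 h, 0.24 after 48 h, then 0.27 and 0.43 after 2 and 4 months. Measured from that median, the higher and lower genes numbered 1255 and 1624 in culture, 522 and 306 at 6 h, 753 and 645 at 48 h, 765 and 659 at 2 months, and 882 and 393 at 4 months. Limited to barcodes of 1000 to 10000 UMIs in both groups, higher genes numbered 2866 in culture and 1335, 1946, 853 and 2454 in lung by time. Lower genes then numbered 316 in culture and 297, 539, 62 and 394 in lung. A scarce gene could also reach 20 CPM through its level in the high barcodes alone, which adds to the higher side.

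Of 4180 genes that could be counted in all 5 libraries, 137 were at least 2-fold higher in each of them and 5 were at least 2-fold lower in each. The long noncoding RNAs MALAT1 and NEAT1, which reside in nuclear speckles and paraspeckles, were among the 15 genes with the largest minimum ratio. MALAT1 stood at 11508 CPM in high and 1889 CPM in kept barcodes of the culture. In lung its levels were 19886 and 4346 CPM at 6 h, 31144 and 8439 at 48 h, 27199 and 5715 at 2 months, and 31448 and 5908 at 4 months. Its high level was thus 6.09-fold (5.97 to 6.22), 4.58-fold (4.51 to 4.64), 3.69-fold (3.66 to 3.72), 4.76-fold (4.73 to 4.79) and 5.32-fold (5.29 to 5.35) that of kept barcodes. NEAT1 was at 8735 against 708 CPM in culture, 2608 against 781 at 6 h, 4985 against 1401 at 48 h, 3885 against 848 at 2 months and 7525 against 897 at 4 months. Its ratio was largest in culture, 12.3-fold (12.0 to 12.6), and smallest at 6 h, 3.34-fold (3.22 to 3.47). The list of nuclear-retained long noncoding RNAs, which includes MALAT1 and NEAT1, was less uniform. Of 8, 6, 7, 6 and 7 counted on that list, 6, 3, 5, 4 and 4 were at least 2-fold higher in the order of the timepoints. MALAT1 and NEAT1 were among the higher members each time, so the remaining members gave fewer. Over all genes 43.1%, 10.6%, 19.1%, 21.4% and 30.7% were higher. In culture and at 48 h 1 member was at least 2-fold lower, against 4.68% and 5.22% of all genes.

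Other genes in that shared set encode regulators whose messages are scarce. MAPK8IP3, a scaffold of JNK signalling, had log2 ratios of 2.41, 1.96, 2.4, 2.31 and 2.52 in the order of the timepoints. OGT, the enzyme that adds O-linked N-acetylglucosamine to proteins, had log2 ratios of 2.52, 1.84, 1.69, 2.16 and 2.41. TSC2, a brake on mTOR, had log2 ratios of 2.56, 1.8, 1.78, 1.68 and 1.94. JUND, a subunit of the transcription factor AP-1, was at 44.7 against 11.3 CPM in culture (38 UMIs in high barcodes), 565 against 148 at 6 h, 830 against 183 at 48 h, 529 against 116 at 2 months and 361 against 115 at 4 months. All 5 ratios of JUND lay above 3, and the culture value was the least precise (3.95-fold, 2.79 to 5.44).

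The 5 genes lower in every library were GAPDH and ALDOA, both enzymes of glycolysis, EEF1G, a subunit of the complex that loads translation factor eEF1A, SNAPIN, which acts in vesicle transport, and AC004922.1, a gene known here by its clone name. GAPDH was at 2830 CPM in high and 6050 CPM in kept barcodes of the culture, 2756 and 8068 at 6 h, 1390 and 5319 at 48 h, 1285 and 3819 at 2 months, and 2896 and 6166 at 4 months. EEF1G reached its lowest ratio at 48 h, where 154 CPM stood against 987 CPM, a log2 ratio of -2.67. In the other libraries its log2 ratio was between -1.83 and -1.16. ALDOA had log2 ratios of -1.13, -1.27, -2.09, -1.95 and -1.32. SNAPIN and AC004922.1 rested on few counts, with 19 and 25 UMIs in the high barcodes at 6 h. For these 2 genes the range of the ratio at 6 h was correspondingly wide, 0.174 to 0.453 and 0.177 to 0.407.

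The same genes were then counted as molecules per barcode along the mitochondrial share. MALAT1 fell late. In culture the mean was 40.3 MALAT1 UMIs per kept barcode, 41.9 at 15% to 25%, 49.95 at 25% to 50%, 14.3 at 50% to 75% and 1.27 above 75%. At 4 months it was 155, 178, 193, 136 and 15.2 UMIs in the same order, at 2 months 130, 131, 112, 73.6 and 6.01, and at 6 h 68.9, 81.1, 66.7, 49.3 and 1.10. At 48 h the decline began earlier, from 325 MALAT1 UMIs to 225, 189, 112 and 17.1. GAPDH fell at once in every library. Its mean went from 129 UMIs per kept barcode to 20.6, 5.57, 2.10 and 1.23 in culture, and from 162 to 37.3, 12.5, 3.48 and 1.24 at 4 months. In barcodes of 25% to 50% mitochondrial UMIs, nuclear-gene totals had a median of 2480.5 in culture and 4208 at 4 months, and MALAT1 was still at or above its mean in kept barcodes in those libraries. NEAT1 in this bin reached 38.1 UMIs in culture and 39.0 at 4 months, against 15.1 and 23.5 in kept barcodes.

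Transcripts of the 79 cytosolic ribosomal proteins fell as fast as GAPDH in culture and less fast in lung. Their sum went from 6427 UMIs per kept barcode to 973, 262, 111 and 53.2 in culture and from 7855 to 2115, 722, 142 and 22.5 at 48 h. The 35 immediate early genes, which cells transcribe within minutes of a stimulus, took a middle course in lung. Their sum went from 144 UMIs per kept barcode to 86.0, 72.6, 32.95 and 0.650 at 6 h, and from 87.9 to 64.8, 49.7, 29.2 and 2.51 at 2 months. The number of immediate early UMIs per barcode was below the kept mean in each bin past the limit. Their CPM lay above that of kept barcodes in each lung bin up to 75%, and above 75% it was lower than in the bin before. At 6 h it went from 31072 CPM at 50% to 75% to 9160 CPM above 75%, next to the 9102 CPM of kept barcodes.

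**Figure D2:**
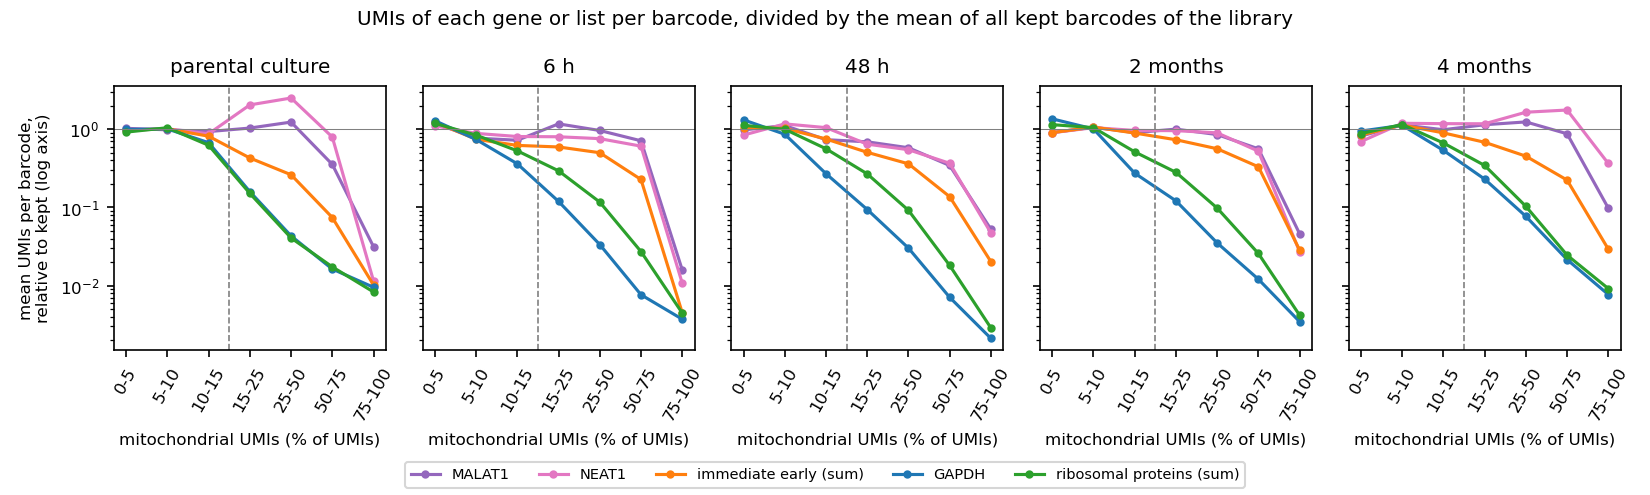
Mean UMIs per barcode of MALAT1, NEAT1, GAPDH, the sum of immediate early genes and the sum of ribosomal protein genes, divided by the mean over all kept barcodes of the library (log axis), in 7 bins of the mitochondrial share. GAPDH and ribosomal protein transcripts fall steadily past the dashed 15% limit, and immediate early transcripts fall less. MALAT1 and NEAT1 stay nearer to 1, or above it, until the upper bins, except at 48 h, where both fall from the limit on.

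Barcodes above 75% mitochondrial UMIs differed from the bin before them. They made up 22.2% of the high-mitochondrial barcodes in culture, 42.1% and 42.3% in the 6 h and 48 h libraries, and 56.0% and 39.2% in the 2-month and 4-month ones. Their median was 203, 32, 150.5, 82 and 314 nuclear-gene UMIs. MALAT1 was seen in 38.7% of them in culture (29 of 75, 27.6% to 50.6%), 15% at 6 h (36 of 240, 10.7% to 20.2%), 66.6% at 48 h (241 of 362, 61.5% to 71.4%), 38.6% at 2 months (513 of 1330, 35.9% to 41.2%) and 87.6% at 4 months (549 of 627, 84.7% to 90.0%). In barcodes of 50% to 75% the share with a MALAT1 UMI was 56.2% in culture and between 96.2% and 100% in lung. Depth differed between these bins and between timepoints, the shares were not brought to a common depth, and no order is read from them.

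The ribosomal protein sum and GAPDH above 75% were nearer to kept barcodes than in the bin before at 6 h and in culture. At 6 h the ribosomal protein sum was at 104489 CPM in the 50% to 75% bin, 255240 CPM above 75% and 256285 CPM in kept barcodes. GAPDH took 921, 6694 and 8068 CPM there. In culture the ribosomal protein sum was at 124982, 223906 and 301383 CPM and GAPDH at 2354, 5163 and 6050 CPM. At 48 h the last 2 bins were close, with ribosomal protein sums of 75341 and 77138 CPM and MALAT1 at 59275 and 58485 CPM. The later lung libraries lay between, with ribosomal protein sums of 147321 and 192915 CPM in these bins at 2 months and 97457 and 175006 CPM at 4 months. The correlation of log2 CPM with kept barcodes was taken over genes whose mean of bin and kept CPM was at least 20, a different set in each bin. In culture it was 0.556 in the 50% to 75% bin and 0.273 above 75%, and at 6 h 0.361 and 0.243. At 48 h it was 0.582 and 0.435, at 2 months 0.596 and 0.670, and at 4 months 0.588 and 0.629. In the sparsest bins 1 UMI could bring a gene into the set, so no change between bins is read from these correlations. The values above 75% are descriptions of sparse sums, of 17031 to 262031 nuclear-gene UMIs. RNA free in the suspension was not measured here, and its part in these barcodes was not tested.

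In culture the 10 highest genes held messages for matrix and membrane proteins (COL4A1, COL4A5, FBN2, IGF2R, ITGA2, FAT1) beside the nuclear RNAs NEAT1 and KCNQ1OT1. The largest log2 ratio was that of COL4A1, a chain of basement membrane collagen, with 164 CPM in high against 10.1 CPM in kept barcodes (3.88, 139 UMIs in high barcodes). IGF2R, the receptor that sorts lysosomal enzymes, was at 197 against 16.2 CPM (3.53), and ITGA2, an integrin that binds collagen, at 191 against 16.2 CPM (3.48). In culture COL4A1 had a mean of 0.216 UMIs per kept barcode and 0.627 at 15% to 25%. It had 0.519 at 25% to 50%, 0.400 at 50% to 75% and 0.0533 above 75%. ITGA2 had 0.345 UMIs per kept barcode, then 0.653, 0.935, 0.15 and 0. Molecules per barcode of both were thus above the kept mean at 15% to 50%, on few UMIs, and the cause was not tested. In lung COL4A1 had log2 ratios of 0.13, 0.16, 0.27 and 1.25, with fewer than 20 CPM in either group at 2 and 4 months. ITGA2 was lowest at 6 h, where 151 CPM in high stood against 160 CPM in kept barcodes (-0.08), and it reached 0.69, 1.05 and 1.42 at 48 h, 2 months and 4 months. IGF2R had log2 ratios between 1.03 and 1.87 in lung, on means under 20 CPM at 6 h and 48 h.

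The first 108 coding bases of these 3 messages, the highest ranked with a hydrophobic start, and of 3 messages that were lower in all libraries are shown because they carry the start of the protein, where a signal for the ER is read. Each runs from the start codon of the canonical transcript in GENCODE 44 (GRCh38). Capitals mark the 9 codons, within codons 2 to 36, whose residues were the most hydrophobic on the Kyte-Doolittle scale. The genes are COL4A1 at chr13:110148963-110307157 on the minus strand, IGF2R at chr6:159969082-160113507 on the plus strand, ITGA2 at chr5:52989340-53094779 on the plus strand, EEF1G at chr11:62559596-62574086 on the minus strand, ALDOA at chr16:30064164-30070457 on the plus strand and GAPDH at chr12:6534512-6538374 on the plus strand.
COL4A1: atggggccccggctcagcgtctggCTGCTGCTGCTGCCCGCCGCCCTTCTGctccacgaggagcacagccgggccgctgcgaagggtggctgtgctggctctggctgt
IGF2R: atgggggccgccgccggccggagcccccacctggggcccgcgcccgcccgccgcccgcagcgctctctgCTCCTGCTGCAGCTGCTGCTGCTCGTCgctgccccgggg
ITGA2: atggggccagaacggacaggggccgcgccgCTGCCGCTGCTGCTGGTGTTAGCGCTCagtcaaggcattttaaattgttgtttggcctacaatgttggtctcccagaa
EEF1G: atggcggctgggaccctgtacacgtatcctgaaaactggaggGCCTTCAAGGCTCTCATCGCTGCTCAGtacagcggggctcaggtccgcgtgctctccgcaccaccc
ALDOA: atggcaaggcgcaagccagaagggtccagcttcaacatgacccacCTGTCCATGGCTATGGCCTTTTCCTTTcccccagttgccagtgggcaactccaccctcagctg
GAPDH: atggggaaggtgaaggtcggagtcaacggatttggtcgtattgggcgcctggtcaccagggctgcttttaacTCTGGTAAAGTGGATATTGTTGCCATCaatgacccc

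The marked window had a mean hydropathy of 2.76 in COL4A1, 3.03 in IGF2R and 3.02 in ITGA2, with runs of leucine codons (CTG, CTC). It was 1.21 in EEF1G, 1.69 in ALDOA and 1.18 in GAPDH. The 3 messages with a hydrophobic start were also the longer ones, with transcripts of 6540, 14061 and 7843 bases against 1446, 1640 and 1285 bases. Length and hydrophobic start were therefore separated over all genes.

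Long transcripts took a larger share of the remaining RNA, most in culture. The median log2 ratio of transcripts under 1000 bases and of those of 6000 bases or more was -0.69 and 1.57 in culture, 0.00 and 0.24 at 6 h, -0.27 and 0.69 at 48 h, -0.31 and 0.79 at 2 months, and -0.32 and 1.25 at 4 months. In culture the median rose with each of 6 length bins, and 75.9% of the 1402 longest transcripts were at least 2-fold higher against 4.77% of the 566 shortest. At 6 h the lowest median was that of transcripts of 1000 to 2000 bases, -0.25. Genes with a hydrophobic start, set at a window mean of at least 2, stood above genes with no hydrophobic stretch of similar coding length in 6 of 6 length bins in culture, by 0.43 to 1.08. At 2 months they did so in 6 of 6 bins, by 0.11 to 0.52. The gap ran from -0.09 to 0.31 at 6 h, from -0.16 to 0.24 at 48 h and from -0.11 to 0.19 at 4 months, on both sides of 0. Transcripts of 60% GC or more had medians of 0.56, 0.78 and 0.85 in the libraries from 48 h on, against 0.10, 0.07 and 0.38 for those under 40% GC. In culture the order was the other way, with 0.60 against 0.92, and at 6 h the values were 0.10 and 0.08. These medians are over genes within 1 library each, and genes are not replicates.

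**Figure D3:**
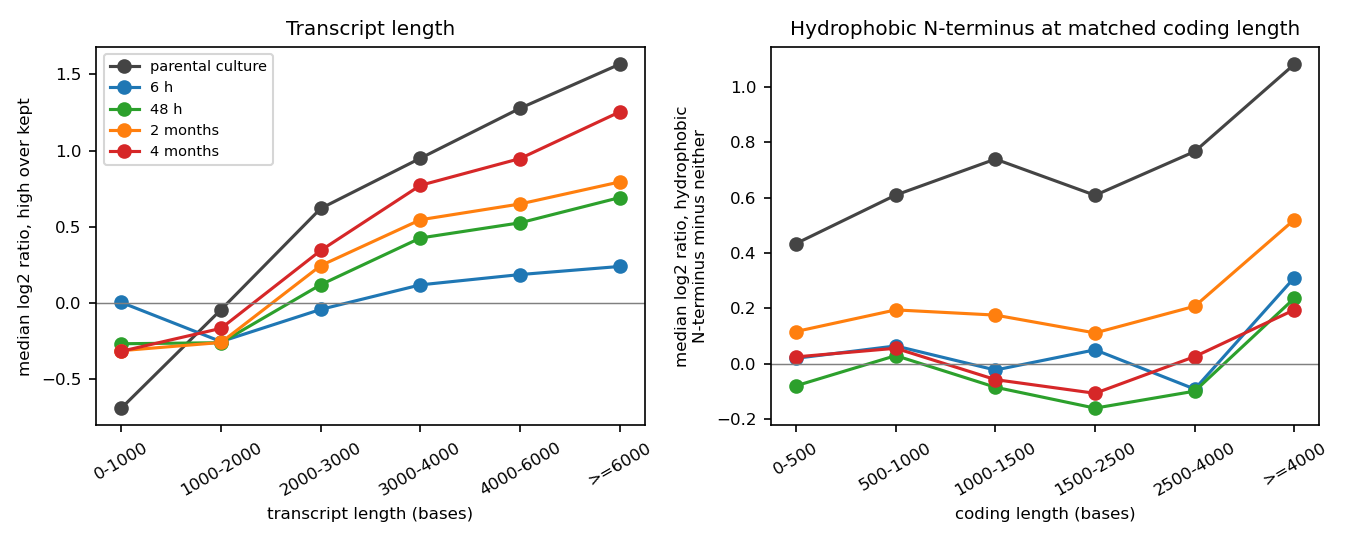
Median log2 ratio (high over kept) by transcript length, left, and the difference in median between genes with a hydrophobic N-terminus and genes with no hydrophobic stretch at matched coding length, right, with 1 line per library. The culture line is the steepest at left, from -0.69 to 1.57, and the highest at right, from 0.43 to 1.08.

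Gene lists showed the same division in culture. Of 20 counted integrins, laminins and matrix receptors, 19 were at least 2-fold higher (median log2 ratio 2.44, against 0.80 for all genes). Of 25 surface receptors and transporters, 23 were higher (2.12), among them EGFR, the receptor of epidermal growth factor, at 379 against 83.4 CPM. Of 18 ER chaperones and genes of the unfolded protein response, 13 were higher (1.78). HSPA5, the main chaperone of the ER, was at 1233 against 170 CPM (7.25-fold, 6.81 to 7.71), and CANX, which binds newly made glycoproteins, at 1540 against 206 CPM (7.47-fold, 7.07 to 7.90). Of 21 lysosomal genes 15 were higher (1.55), with PSAP, the precursor of the saposins, at 486 against 92.1 CPM. Of 18 genes of cholesterol synthesis and uptake 13 were higher and 1 lower (1.42), where 4.68% of all genes were lower. All 5 lists exceeded the 43.1% of all counted genes that were higher. A member scarce in kept barcodes, such as COL4A1 at 10.1 CPM, was counted only through its level in high barcodes. This adds to the higher counts of these lists here and in lung, and how much was not tested. The share over all genes was taken by the same rule.

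At 6 h no list of these 5 exceeded the background. The integrin list had 1 of 24 genes higher (median 0.22), the surface receptors 1 of 22 (-0.04), the ER list 0 of 16 (0.19), the lysosomal list 2 of 19 (0.08) and the cholesterol list 0 of 13 (0.25), against 10.6% of all genes. HSPA5 was at 467 against 477 CPM and CANX at 334 against 307 CPM. At 48 h the same lists had 3 of 24, 3 of 24, 0 of 18, 1 of 19 and 3 of 18 genes higher, against 19.1% of all genes. At 2 months 13 of 17 integrins and laminins were higher (1.28) and 11 of 23 surface receptors (0.95), against 21.4% of all genes. At 4 months it was 13 of 22 (1.07) and 13 of 25 (1.01), against 30.7%. The cholesterol list had 5 of 17 and 6 of 17 genes higher at 2 and 4 months, and the lysosomal list 3 of 18 and 2 of 17. ITGB4, the integrin of hemidesmosomes, was at 475 against 196 CPM at 2 months and 867 against 338 CPM at 4 months. The ER list had 1 of 16 genes higher at both of these timepoints.

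Cytosolic ribosomal protein messages had the lowest median of the 47 lists in culture, where 56 of 79 were at least 2-fold lower (4.68% of all genes were) and none higher, with a median log2 ratio of -1.14. Their medians in lung were -0.35 at 6 h (9 lower, 2 higher), -0.47 at 48 h (19 lower), -0.39 at 2 months (8 lower) and -0.58 at 4 months (0 lower). Over all genes 4.95%, 5.22%, 4.71% and 0.376% were lower in lung by time, and 10.6% were higher at 6 h. RPS12, a member of the small subunit, was at 2304 against 7327 CPM in culture and at 9963 against 6446 CPM at 6 h. Among the 10 lowest genes in culture were TMSB4X and S100A14. TMSB4X, which binds actin monomers, was at 153 against 562 CPM (-1.87), and S100A14, a calcium-binding protein of epithelia, at 24.7 against 89.7 CPM (-1.82, 21 UMIs in high barcodes). In lung TMSB4X had log2 ratios between -0.24 and 0.45, and S100A14 between -0.51 and 0.19.

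Nuclear genes for mitochondrial proteins lay mostly below the median of all genes, unlike the mitochondrial transcripts that chose the barcodes. Of 37 nuclear subunits of respiratory complex I, 2 were at least 2-fold higher in culture and 1 lower (median -0.54), and at 4 months none passed 2-fold (-0.22). At 6 h their median was 0.17, above that of all genes. Over all genes 43.1% were higher and 4.68% lower in culture, and 30.7% and 0.376% at 4 months. The lower counts of complex I were near these shares. The 18 nuclear subunits of complex V had medians of -0.64, -0.21, -0.44, -0.47 and -0.25. The mitochondrial ribosomal proteins had medians of -0.52, -0.34, -0.51, -0.57 and -0.32, with none of 74, 70, 71, 74 and 71 counted members higher. The share of all genes higher was 43.1%, 10.6%, 19.1%, 21.4% and 30.7%. UQCRB, a subunit of complex III, went different ways, at 202 against 437 CPM in culture and 1092 against 513 CPM at 6 h. Proteasome subunits were near 0 in culture (-0.01, which is below the median of all genes) and had medians of -0.48, -0.66, -0.63 and -0.32 in lung.

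Glycolysis did not behave as a single group. Its median was 0.31 in culture, below the 0.80 of all genes, with 4 genes higher and 2 lower of 15. In lung it was -0.66 at 6 h (4 of 13 lower), -0.59 at 48 h (5 of 13 lower), -0.39 at 2 months (6 of 14 lower) and -0.14 at 4 months (2 of 15 lower, 1 higher). Over all genes 4.68% were lower in culture, and 4.95%, 5.22%, 4.71% and 0.376% in lung. The share of all genes higher was 43.1% in culture and 30.7% at 4 months. LDHA, which makes lactate, was at 507 against 694 CPM in culture and at 593 against 1364 CPM at 6 h, 520 against 1401 at 48 h, 282 against 604 at 2 months and 962 against 1802 at 4 months.

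**Figure D4:**
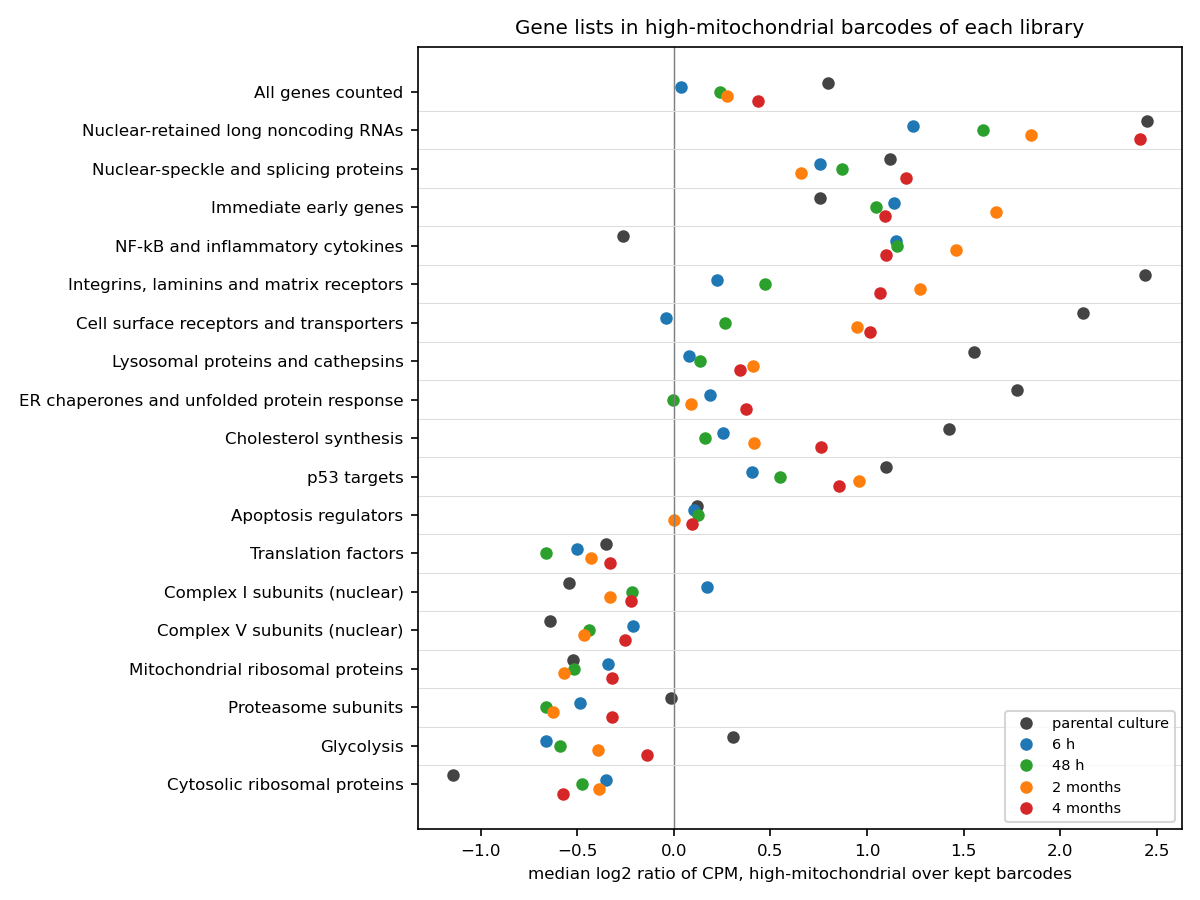
Median log2 ratio (high over kept) of 18 gene lists and of all counted genes, 1 point per library. Lists of the ER, lysosome and cell surface lie right of all genes in culture (dark points) and near them at 6 h. The median of the nuclear-retained RNAs lies right of all genes in each library and that of the ribosomal proteins left of them. Single nuclear-retained RNAs went the other way, as the text states.

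Immediate early genes took a larger share in every lung library. At 6 h 19 of 32 were at least 2-fold higher (median 1.14, 10.6% of all genes), at 48 h 17 of 32 (1.05, against 19.1%), at 2 months 27 of 31 (1.67, against 21.4%) and at 4 months 18 of 32 (1.09, against 30.7%), and none was lower. In culture only 16 could be counted, of which 5 were higher and 1 lower (0.76, near the median of all genes). Over all genes in culture 43.1% were higher and 4.68% lower. IER3, which modulates apoptosis and signalling, was at 2431 against 739 CPM at 6 h, 3761 against 1581 at 48 h, 1231 against 345 at 2 months and 1233 against 696 at 4 months. JUN was at 2122 against 655, 3177 against 987, 958 against 338 and 1385 against 595 CPM. FOS, its partner in AP-1, was past 2-fold at 6 h (879 against 243 CPM) and 2 months (1237 against 384 CPM), and under it at 48 h (1265 against 687 CPM) and 4 months (2172 against 1355 CPM). NR4A1, an orphan nuclear receptor of the same response, was among the top 10 genes at 2 months with 382 against 55.01 CPM.

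Targets of NF-kB and inflammatory cytokines stood beside them, with 6 of 8, 9 of 12, 6 of 7 and 7 of 10 counted genes at least 2-fold higher in the 4 lung libraries and medians of 1.15, 1.15, 1.46 and 1.10. Over all genes 10.6%, 19.1%, 21.4% and 30.7% were higher there. Of this list 1 gene could be counted in culture. TNFAIP3, which restrains NF-kB, was at 126 against 46.1 CPM at 6 h, 272 against 73.2 at 48 h, 41.3 against 7.71 at 2 months and 100 against 23.2 at 4 months. At 2 months TNFAIP3 was counted only through its level in high barcodes, and such members add to the higher counts of this list. Messages of the immediate early and NF-kB lists are short-lived in many cells. Genes of nuclear speckles and splicing were higher in culture (20 of 31, median 1.12) and at 4 months (18 of 31, 1.20), and 7, 12 and 8 of 31 were higher at 6 h, 48 h and 2 months (medians 0.76, 0.87 and 0.66), with none lower in any library. The share of all genes higher was 43.1% in culture, 10.6% after 6 h, 19.1% after 48 h, then 21.4% and 30.7%, and the 8 of 31 at 2 months was near it.

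Genes that regulate apoptosis gave no common direction. Of 17, 16, 19, 17 and 13 counted apoptosis regulators, 4, 1, 3, 3 and 3 were higher and 2, 0, 1, 0 and 0 lower, and the medians lay between 0.00 and 0.13. The background of higher genes was 43.1%, 10.6%, 19.1%, 21.4% and 30.7%, and that of lower genes 4.68%, 4.95%, 5.22%, 4.71% and 0.376%. MCL1, a short-lived inhibitor of apoptosis, had log2 ratios of 0.92, 0.43, 0.85, 1.30 and 1.38, and BAX, which opens the outer mitochondrial membrane, had -0.80, -0.12, 0.03, -0.10 and -0.07. Of 9, 10, 14, 11 and 13 counted p53 targets, 5, 2, 3, 5 and 6 were higher and none lower, with medians of 1.10, 0.40, 0.55, 0.96 and 0.86. Their largest log2 ratio at 6 h (2.06) and 48 h (2.56) was also the largest of the immediate early list, so these lists overlap. The 3 of 14 at 48 h was close to the 19.1% of all genes. The culture value fell to -0.68 over genes of at least 50 CPM. PLK3 was high in each lung library, with 169 against 72.3 CPM at 6 h and 98.3 against 21.5 CPM at 4 months.

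The 6 h and 48 h libraries shared several of their highest genes. ID2, an inhibitor of differentiation factors, was at 320 against 32.9 CPM at 6 h and 204 against 19.3 CPM at 48 h, and in culture at 76.5 against 90.6 CPM. HIST1H4C, a replication-dependent histone H4 gene, was at 350 against 1085 CPM in culture, 773 against 304 at 6 h and 798 against 138 at 48 h, and its log2 ratio was -0.72 at 2 months and -0.36 at 4 months. SNHG9, a small nucleolar RNA host gene, had log2 ratios of 0.86, 2.48, 2.35, 1.82 and 1.41. The clone-named gene Z93241.1 had the largest ratio of both early libraries, at 161 against 6.35 CPM and 214 against 2.83 CPM. LAMTOR1, which anchors mTORC1 signalling to lysosomes, was the lowest at 6 h, at 24.0 against 109 CPM. Across the 4180 genes counted in all libraries, log2 ratios correlated with Pearson's r of 0.79 between 6 h and 48 h, 0.87 between 2 and 4 months, and 0.49 between culture and 6 h, as a description with no test. The 48 h library was nearer to 2 months (0.82) and 4 months (0.85) than to 6 h. The 6 h library was at 0.62 with 2 months and 0.63 with 4 months. Culture was at 0.64 with 48 h, 0.73 with 2 months and 0.81 with 4 months. Of the 280 genes higher at 6 h, 68.6% were higher in culture, against 31.3% of all 4180. Of the 1308 higher in culture, 14.7% were higher at 6 h, against 6.699% of all 4180. Of the same 1308 genes, 410 were higher in no lung library. Over all 4180 genes, 31.3% were higher in culture, against 6.699%, 12.9%, 15.3% and 23.7% in lung by time. The number higher in culture alone depends on these unequal shares.

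At 2 months the low end held genes of a cell class that was scarcer among the high-mitochondrial barcodes. The culture holds a large class of cells with UCHL1, CKB and CSRP2 and a small class with S100A6, KRT19 and S100A14, and each barcode was assigned to the class with more UMIs over 10 genes each. At 2 months 592 of 3322 kept barcodes and 72 of 2373 high barcodes were of the large class, so the small class made up 82.2% of assigned kept barcodes (80.8% to 83.5%) and 96.4% of assigned high ones (95.4% to 97.1%). UCHL1, a deubiquitinase of neurons, was the lowest gene at 14.9 against 149 CPM, and VIM, an intermediate filament, followed at 46.3 against 361 CPM. All 8 counted genes of the large class were lower, but the class was assigned from these genes, so this is no separate observation. With small-class barcodes alone, genes at least 2-fold lower fell from 289 to 61, with 55 in common, and higher genes from 1313 to 1024. In culture the small class made up 13.7% of assigned high barcodes (9.92% to 18.2%) and 14.5% of assigned kept ones. Within the high group it was 10.2% up to 75% mitochondrial UMIs (6.69% to 14.6%) and 35.9% above (21.2% to 52.8%). Unassigned were 53 of 338 high and 9 of 9059 kept barcodes in culture, and 399 of 2373 high and 0 of 3322 kept ones at 2 months. Among small-class barcodes alone 733 genes were lower in culture, where that high group held only 39 barcodes. At 6 h, 48 h and 4 months nearly all assigned barcodes were of the small class in both groups.

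At 4 months the 3 lowest genes with a mean of at least 50 CPM were SPRR2E, SPRR1A and S100A7, which squamous epithelium makes as it cornifies. SPRR2E was at 7.07 against 123 CPM (-3.94, 39 UMIs in high barcodes), SPRR1A at 27.7 against 104 CPM (-1.87), and S100A7 at 1212 against 3305 CPM (-1.45). Of 12 counted cornified envelope and suprabasal genes, 4 were at least 2-fold lower (0.376% of all genes were) and 2 were higher (30.7% of all genes were). The other 6 lay within 2-fold, and the median log2 ratio was -0.61. The highest of them was EVPL, which encodes envoplakin, with a log2 ratio of 1.86. SPRR2E belongs to a family of near-identical genes among which reads can be split. At 2 months S100A7 stood the other way, at 1372 against 1021 CPM.

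Human markers of other cell types were low in both groups. The hosts were mice and reads were counted on the human genome, so low sums cannot show that mouse cells were absent. Summed endothelial markers reached at most 2.41 CPM and erythroid markers at most 1.18 CPM in any high group. Summed fibroblast markers were at 100 against 28.1 CPM in culture, where 5 of 10, among them COL1A2 and DCN, were at 0 in high barcodes, and between 23.1 and 42.6 CPM in high groups of lung, against 6.77 to 33.1 CPM in kept ones. Summed squamous markers were at 518 against 167 CPM in culture, 5083 against 4076 at 6 h, 4537 against 3386 at 48 h, 12719 against 9496 at 2 months and 22802 against 20261 at 4 months. The culture held cells of the tumor line, so its low sums show that a low level does not mark a cell of another type. Single squamous markers were uneven, and KRT5, KRT14, KRT17 and PKP1 were at 0 in the high barcodes of the culture. Of 7 counted markers at 6 h none passed 2-fold (median log2 ratio -0.25), and at 48 h none of 7 was higher and 2 were lower (0.24). In culture 3 of 4 counted ones were higher, at 2 months 4 of 11 and at 4 months 3 of 11. Over all genes 43.1%, 10.6%, 19.1%, 21.4% and 30.7% were higher in the order of the timepoints, and 5.22% were lower at 48 h. The 3 of 11 at 4 months was near that share. Summed markers of lung epithelium reached at most 39.0 CPM in a high group. PTPRC, the leukocyte antigen CD45, was at 0 in the high groups of culture, 48 h and 2 months. At 6 h PTPRC was detected in the high group and was at 0 in the kept group, and at 4 months it was detected in both. The leukocyte list, which includes S100A8 and S100A9 of keratinocytes, was at 1137 against 631 CPM at 2 months and 656 against 1237 CPM at 4 months. The part of these markers in the results was not tested. No barcode held more than 1.96% of the nuclear-gene UMIs of a high group. Between 1.48% and 3.39% of high barcodes had a sequence that also occurred in another library, and without them no count of higher or lower genes moved by over 1.5 times.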

How the data were processed

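Single-cell 3′ libraries were made on the 10x Chromium platform for 1 parental culture and 4 lung timepoints. The deposited values are UMI counts per gene and called barcode, made by the authors with Cell Ranger 3 on GRCh38 per the submitters' processing notes, and they precede the study's quality filter. Totals were 849727 to 5516266 nuclear-gene UMIs in the high groups and 31041834 to 193180829 in the kept groups. Counts were summed per group within each library, so each value compares barcodes of 1 library and no test was run. Ratios carry exact conditional binomial intervals and shares carry Clopper-Pearson intervals at 95%, for counting error only. No doublet caller was run and doublets were not removed. Kept barcodes were limited to 8000 genes.

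Log2 ratios were computed after adding 1 CPM, over genes with a mean of at least 20 CPM. Genes named are those past 2-fold in all 5 libraries (up to 15 per direction), the 10 highest and 10 lowest per library at a mean of at least 50 CPM, the most abundant members of the gene lists and the MT- genes. List examples were taken from the 4 most abundant members. The members and the 47 lists were chosen with earlier results of these data known. Transcript length, coding length and hydrophobicity came from the canonical transcripts of GENCODE 44, found for at least 97.3% of counted genes with a coding sequence. The ratio was tested on simulated data. Alternatives were other mitochondrial limits, UMI and CPM minimums, weighting, totals and cell classes. Centring, a limit of 75%, division of the upper bin and removal of shared barcodes were added after seeing the data. A few genes are not reported here. Scripts used Python 3.11.15, numpy 2.4.6, scipy 1.17.1 and pandas 2.3.3.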

Additional observations from a re-analysis of the deposited data

How the results depend on the processing

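No paired analysis was possible because the timepoints share 1 replicate number, with 1 library each. High and kept barcodes were compared within each library, and no test over the 5 libraries was run, as they are of different conditions. Values below are in the order of sampling, culture first and 4 months last, unless named. With the limit at 10%, the high share was 5.86%, 30.7%, 50.2%, 50.3% and 33.6%, higher genes numbered 530, 204, 519, 628 and 432 and lower genes 2, 75, 52, 188 and 5. With the limit at 25%, the share was 2.798%, 15.5%, 35.9%, 35.4% and 22.1%, lower genes numbered 669, 616, 631, 517 and 251, and higher genes 1318, 1805, 2022 and 2821 in lung. With at least 3000 UMIs the share was 1.79%, 11.7%, 37.6%, 23.4% and 22.6%. With kept barcodes up to 10% and high ones over 25%, lower genes numbered 671, 651, 676, 593 and 269, and higher genes 1345, 1897, 2126 and 2830 in lung. With MT- UMIs in the totals, higher genes numbered 1205, 119, 119, 71 and 216 and lower genes 1206, 1395, 1799, 1973 and 1340, as the added total lowers every gene. Centred on the median of all genes, higher and lower genes numbered 1255 and 1624 in culture, 753 and 645 at 48 h, 765 and 659 at 2 months and 882 and 393 at 4 months. At a minimum of 5 CPM, higher genes numbered 5614, 1356, 2354, 2629 and 3754, and lower ones 426 at 6 h and 460 and 36 for 2 and 4 months. At a minimum of 50 CPM, higher genes numbered 1113, 250, 479, 409 and 542, and lower ones 159 at 6 h and 166 and 13 for 2 and 4 months. These 2 settings test more or fewer genes. With barcodes of 1000 to 10000 UMIs in both groups, higher genes numbered 1335 at 6 h, 1946 at 48 h and 853 at 2 months, and lower genes 539 at 48 h and 62 and 394 for 2 and 4 months. With equal weight for each barcode, higher genes numbered 1013 at 6 h and 1816 at 48 h, and lower genes 667 at 6 h, 681 at 48 h and 161 at 4 months. Among small-class barcodes lower genes numbered 733 in culture, on 39 high barcodes, and 61 at 2 months. At a minimum of 50 CPM the difference between long and short transcripts was 0.91 at 2 months and 1.48 at 4 months, and that of a hydrophobic start without matching was 0.093 at 4 months, against -0.03. Lists that changed sign were, in culture, the study's signature genes (1.12) and the small-class genes (1.22) with the limit at 10%, p53 targets with MT- UMIs in the totals (-0.038) and at 50 CPM (-0.68), and at 48 h small nucleolar RNA host genes with MT- UMIs in the totals (-0.095). Where the construction does not show it, the cause was not tested. In all, 93 values of the main results moved and 82 were counted as unchanged. Of lists and single genes, 607 moved without changing sign, 5 changed sign and 2278 were counted as unchanged. A value counted as unchanged could still shift, and small differences near 0 could change sign.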

Other observations

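MT1E, a metallothionein that binds zinc and copper, was lower in high barcodes of the culture and higher at 6 h and 2 months. It was at 43.5 CPM in high against 142 CPM in kept barcodes of the culture, and at 1454 against 698 CPM at 6 h and 532 against 192 CPM at 2 months. Of the counted metallothioneins 1 of 4 was at least 2-fold lower in culture, 2 of 3 were higher at 6 h and at 2 months, and none of 3 passed 2-fold at 48 h or 4 months. Over all genes 4.68% were lower in culture, and 10.6%, 19.1%, 21.4% and 30.7% were higher in lung by time. Few of the 8 members could be counted, so these counts say little of the family. FTH1, the heavy chain of ferritin, was lower in each library, with log2 ratios of -1.44, -1.06, -1.78, -0.78 and -0.93, while its partner FTL had -1.43 in culture and 0.06 at 6 h. MTRNR2L12, a nuclear gene whose sequence is close to the mitochondrial 16S ribosomal RNA, was at 67.7 against 6.77 CPM at 6 h, 86.8 against 5.86 at 48 h, 43.1 against 1.79 at 2 months and 42.6 against 2.25 at 4 months. Reads of the mitochondrial copy could be counted there, so this value is uncertain as expression of the nuclear gene. CEACAM5, an adhesion molecule of epithelia, was among the top genes at 2 months, at 112 against 14.8 CPM, and at 4 months it stood at 1.63 against 12.3 CPM on 9 UMIs.

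Some kept barcodes held no MALAT1 UMI. A MALAT1 UMI was seen in 97.8% of kept barcodes in culture (97.4% to 98.1%), 72.0% at 6 h (interval 70.0% to 74.0%), 91.5% at 48 h (interval 89.7% to 93.0%), 95.3% at 2 months (interval 94.5% to 96.0%) and 92.1% at 4 months (interval 91.3% to 92.9%). At 6 h the share was 77.1% in barcodes of at most 5% mitochondrial UMIs, whose median was 18958.5 nuclear-gene UMIs, and 95.5% in barcodes of 25% to 50%, whose median was 2278.5. Of these bins, the one of lower depth thus showed the transcript more often. Other bins at 6 h went the other way, with 65.8% at 5% to 10% (median 10267) and 15% above 75% (median 32).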
